A study of Mus musculus with 4 samples.

Results

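Bone morphogenetic protein (BMP) signalling and its Id target genes were followed through 9 genes, the target genes Id1, Id2, Id3 and Id4, the ligand gene Bmp4, the receptor gene Bmpr1a, the signal-transducing SMAD genes Smad1 and Smad5, and the inhibitory SMAD gene Smad6. They were picked by symbol for their place in the pathway, out of the 47633 genes of the deposited table. All 9 had a row and passed the filter used for testing. The 4 libraries were made from total RNA of mouse 129S2/SvPas cells. A single library came from embryonic stem (ES) cells kept for 2 days without leukaemia inhibitory factor (LIF, a cytokine that keeps mouse ES cells undifferentiated), and another, labelled embryoid body (EB), from ES cells kept for 5 days without it. The 2 reference libraries came from ES cells in medium with serum and LIF on mitomycin C-treated C57/BL6 embryonic fibroblasts. No genetic change is given for any group, and the labels do not say whether fibroblasts were present after LIF was withdrawn or whether each ES library was a culture of its own, so any p-value here reflects the scatter of that pair alone, and this scatter may be technical.

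BMP ligands bind a complex of type I and type II receptor kinases at the cell surface. The type I receptor phosphorylates SMAD1, SMAD5 and SMAD9, which enter the nucleus with SMAD4 and switch on target genes, among them the Id genes and the feedback inhibitors Smad6 and Smad7. Id proteins are helix-loop-helix proteins without a DNA-binding region, and they hold basic helix-loop-helix (bHLH) factors such as the E proteins away from DNA. In mouse ES cells, BMP acting through Id genes is known to block neural differentiation while LIF acts through STAT3 to sustain self-renewal.

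The Id genes encode related proteins, and the coding sequences of 3 of them are shown because the results turn on how differently the family members behaved. The stretch is the 42 codons (126 bases) with the highest summed identity of the encoded amino acids between Id2 and the other family members, without gaps. It starts at coding base 103 in Id2, 118 in Id3 and 190 in Id4, and was read from the GENCODE vM21 transcripts of each gene, 5′ to 3′. Capitals mark bases shared by all 4 family members, Id1 included.
Id2: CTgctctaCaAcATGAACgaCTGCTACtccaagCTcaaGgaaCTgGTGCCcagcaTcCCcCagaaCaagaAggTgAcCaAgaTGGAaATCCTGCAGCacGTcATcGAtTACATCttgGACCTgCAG
Id3: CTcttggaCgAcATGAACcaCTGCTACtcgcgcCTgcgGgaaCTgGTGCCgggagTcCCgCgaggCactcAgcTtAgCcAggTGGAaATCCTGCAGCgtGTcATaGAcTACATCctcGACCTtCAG
Id4: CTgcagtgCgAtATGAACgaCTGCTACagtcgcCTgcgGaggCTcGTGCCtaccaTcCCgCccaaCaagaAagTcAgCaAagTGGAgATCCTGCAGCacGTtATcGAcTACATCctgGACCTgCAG
Of the 126 bases, 71 (56.3%) were the same in all 4 genes, and identity between pairs lay between 69.8% and 82.5%, with Id1 and Id2 the most alike. Over the whole transcript used for each gene, the longest run of bases shared by any pair was 19, between Id2 and Id3.

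Id2 (ENSMUSG00000020644.8) lies in mm10 on chromosome 12, from 25093799 to 25097140 on the minus strand, and Id3 (ENSMUSG00000007872.3) on chromosome 4, from 136143497 to 136145755 on the plus strand. Id1 lies on chromosome 2 (152736251 to 152737410), Id4 and Smad5 on chromosome 13, Bmp4 and Bmpr1a on chromosome 14, Smad1 on chromosome 8 and Smad6 on chromosome 9 (63953076 to 64022059). In the annotation, Id4, Bmp4 and Bmpr1a overlap non-coding genes on the opposite strand over 4.44%, 3.96% and 4.57% of their exon length. Whether strand was used in counting is not stated, so reads of these overlaps cannot be assigned with certainty. The other 6 members overlap no gene body on the opposite strand.

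The promoter windows of Id2, Id3 and Smad6 are shown because Id2 and Id3 differed in opposite directions in the EB library and Smad6 was the only member whose window held the palindromic SMAD-binding element. Windows run from 250 bases before to 50 bases after a transcription start in RefSeq, on GRCm38.p6 (the same assembly as mm10). The windows are given 5′ to 3′ on the gene's strand. They lie at chr12:25096043-25096342 (minus strand, Id2), chr4:136143572-136143871 (plus strand, Id3) and chr9:64022010-64022309 (minus strand, Smad6). The Id2 and Id3 windows fall within the gene bounds given above, so their starts are not the outermost ones annotated for these genes. Capitals mark matches to a motif.
Id2: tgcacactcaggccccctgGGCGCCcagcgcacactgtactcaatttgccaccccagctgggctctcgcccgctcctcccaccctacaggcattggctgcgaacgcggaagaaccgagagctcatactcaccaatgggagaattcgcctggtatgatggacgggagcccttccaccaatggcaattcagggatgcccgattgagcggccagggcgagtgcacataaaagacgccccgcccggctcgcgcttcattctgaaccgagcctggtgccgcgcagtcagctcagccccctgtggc
Id3: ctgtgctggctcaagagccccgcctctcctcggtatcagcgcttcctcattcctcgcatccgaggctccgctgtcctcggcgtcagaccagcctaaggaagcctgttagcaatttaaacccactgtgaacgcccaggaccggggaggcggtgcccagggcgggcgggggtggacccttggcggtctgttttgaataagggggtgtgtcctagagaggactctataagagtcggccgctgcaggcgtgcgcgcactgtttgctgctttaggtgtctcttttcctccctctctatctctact
Smad6: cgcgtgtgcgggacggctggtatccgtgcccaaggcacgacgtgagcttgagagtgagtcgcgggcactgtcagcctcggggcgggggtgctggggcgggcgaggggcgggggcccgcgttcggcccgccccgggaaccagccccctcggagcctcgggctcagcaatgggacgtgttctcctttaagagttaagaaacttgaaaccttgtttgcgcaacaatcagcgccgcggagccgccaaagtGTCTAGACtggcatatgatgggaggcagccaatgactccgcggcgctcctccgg
Both strands were searched for 3 motifs, namely GGCGCC, a GC-rich element bound by SMAD1 and SMAD5, GTCTAGAC, the palindromic SMAD-binding element, and TTCNNNGAA, the core recognised by STAT proteins. The Id2 window held 1 GGCGCC, at positions -231 to -226 (position -1 is the last base before the start), whereas the Id3 window held no match to any of the 3. The Smad6 window held GTCTAGAC across the start itself, from position -4 to position 4. Windows were found for 8 of the 9 members, 10 windows in all, and none was found for Id1. GGCGCC was also present for Id4, Bmpr1a and Smad5, the last of which had more than 1 window. These are named by gene, whereas the shares that follow are by window. Of all 32851 windows of the same length, 11.9% held GGCGCC, 0.21% held GTCTAGAC and 8.3% held TTCNNNGAA. No window of a member held TTCNNNGAA. These matches describe the letters of the windows only.

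Levels are the FPKM that the authors deposited (fragments scaled to gene length and to the library's total). Estimated depth was 18.1 M fragments for the LIF-withdrawal library, 26.4 for the EB library, and 31.5 and 26.4 for the ES libraries. The 10 most abundant genes took 44.7%, 17.4%, 15.5% and 9.8% of the FPKM sum in the same order. Differences from ES cells were tested with limma on log2(FPKM + 1) over the 15676 genes that reached 1 FPKM in some library. Calls needed an adjusted p (Benjamini-Hochberg) under 0.05 together with an absolute log2 difference of at least 1. The 1 residual degree of freedom came from the ES libraries, and neither derived library had a replicate. A narrower strand-clear set of 7175 genes was fitted in the same way, made of coding genes and long non-coding genes that have 1000 or more bases of exons and share no position with a gene body of the other strand. Pou5f1, which marks pluripotent cells, was at 455 FPKM after LIF withdrawal, 461 in the EB library and 480.3 ± 11.9 in ES cells (SD, n = 2). Nanog was at 103, 156 and 111 ± 3.79, so these 2 of 10 listed ES cell markers stayed high in the library labelled EB. Of the 10, 6 were above both ES libraries in the EB library and 4 below both, with Tdgf1 the lowest at 0.666 times the ES mean. After LIF withdrawal 3 were above both and 6 below both. Of 7 mesoderm markers, 5 were above both ES libraries after LIF withdrawal and 2 in the EB library. The share of all genes above or below both ES libraries was not counted. Only 3 of the 7 passed the filter. Mixl1, Hand1 and Tbx6, among those above after LIF withdrawal, rested on about 17, 19 and 10 fragments there. Limma called 1 of 3 tested mesoderm markers higher after LIF withdrawal, against 7.32% of all tested genes. This was Eomes, an early mesoderm and endoderm factor gene (limma adjusted p = 0.0285). Eomes was at 3.72 FPKM after LIF withdrawal, 1.26 in the EB library and 1.32 ± 0.00631 in ES cells. T (brachyury) was at 0.558, 0.127 and 1.07 ± 0.0943 FPKM, with about 8 fragments behind the EB value.

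**Figure D1:**
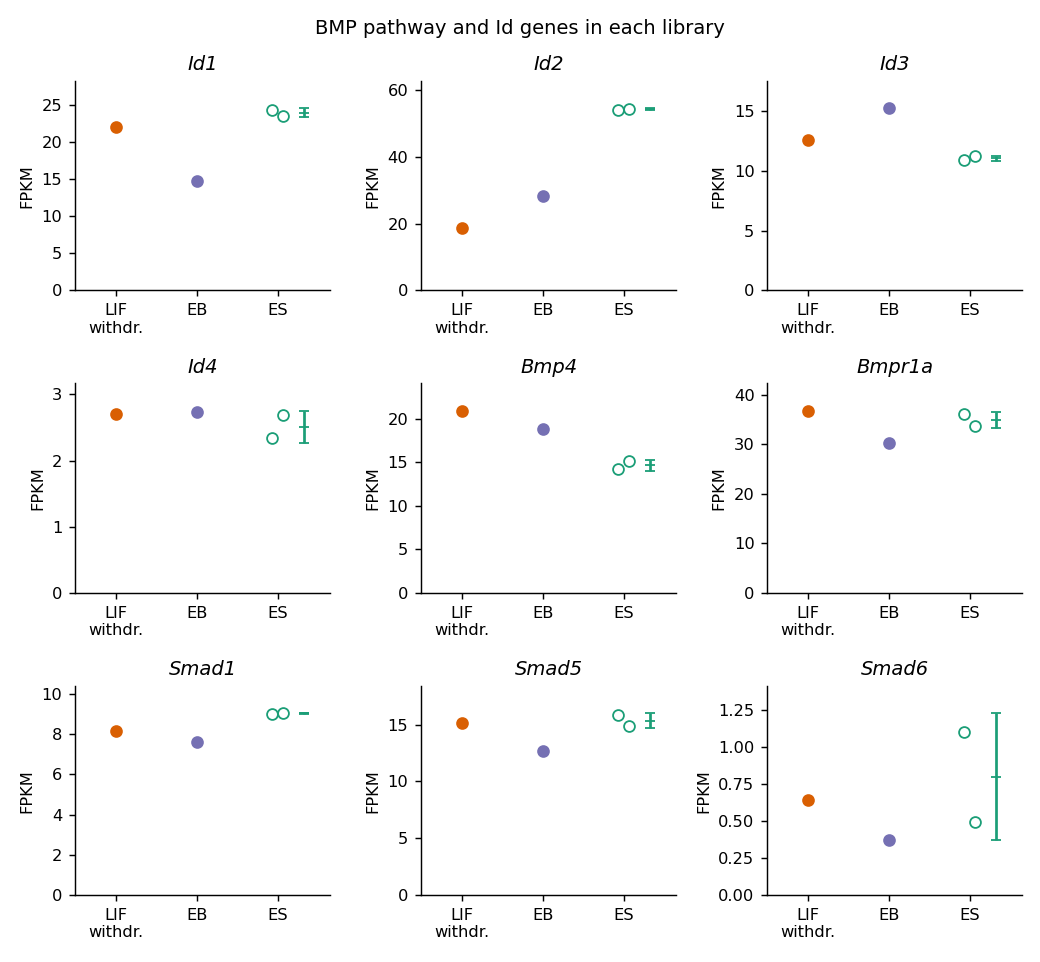
FPKM of the 9 members in each library (vertical axes start at 0 and differ between panels); filled points are the single LIF-withdrawal and EB libraries, open points the ES libraries, and the bar gives the ES mean ± SD (n = 2). Id2 was at 18.7 and 28.4 FPKM in the derived libraries, both below the ES libraries at 54.1 and 54.5.

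The comparison of LIF withdrawal with ES cells asked how these genes stood after 2 days without the cytokine. Id2 fell and was the only member called. Its level was 18.7 FPKM after LIF withdrawal, against 54.1 and 54.5 FPKM in the ES libraries. The derived library thus lay far below both ES libraries, which were almost equal. The log2 difference was -1.49 (SE 0.02, limma adjusted p = 0.00953), or 0.344 times the ES mean. Id2 was called lower again in the strand-clear set (limma adjusted p = 0.0106) and was also the only member 2-fold or more from each ES library. In bulk samples like these, fewer cells of a type and less RNA per cell cannot be told apart.

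The other Id genes were less than 2-fold from their ES levels after LIF withdrawal in FPKM. Id1, a BMP target with high levels in ES cells, was at 22.1 FPKM, against 24.4 and 23.6 FPKM in ES cells. Its log2 difference of -0.11 had a 95% limma interval from -0.30 to 0.07, which leaves out a 2-fold change in either direction on this scaling. On rescaling to TPM the Id1 difference was -0.74, with the median of all genes at -0.53. Id3 was at 12.6 FPKM, against 10.9 and 11.2 FPKM in ES cells. It lay above both ES libraries, with a difference of 0.18 (interval -0.02 to 0.37, limma adjusted p = 0.150) that turned to -0.43 on TPM. Id4 was at 2.70 FPKM, against 2.34 and 2.68 FPKM, and its interval of -0.42 to 0.57 around a difference of 0.08 (-0.42 on rescaling to TPM) was the widest of the family.

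Of 9 members 1 was thus called after LIF withdrawal. Among all tested genes 7.67% were called and 0.357% were called lower. An unadjusted p under 0.05 was reached by 2 of 9 members, Id2 and Bmp4, and by 37.2% of all tested genes. The strand-clear fit called 1 of 6 members, against 3.07% of its genes, and the same single member had an adjusted p under 0.05 at any size, against 23.2%. The size rule (2-fold or more from each ES library in FPKM itself, with no pseudocount) also held for 1 of 9 members and for 16.9% of tested genes, with 4.09% on the lower side. The median log2 difference was -0.03 over the members and 0.04 over all tested genes.

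In the EB library the Id genes differed from ES cells in both directions. Id2 was again below both ES libraries, at 28.4 FPKM against 54.1 and 54.5 FPKM. Its log2 difference was -0.91 (SE 0.02), with limma adjusted p = 0.124 among all genes and 0.0229 among strand-clear ones, short of the 2-fold threshold. Id1 was at 14.8 FPKM in the EB library, against 24.4 and 23.6 FPKM in ES cells. That is 0.615 times the ES mean, a log2 difference of -0.67 (SE 0.04, limma adjusted p = 0.139 among all genes and 0.0278 among strand-clear ones). Id3 went the other way, at 15.2 FPKM against 10.9 and 11.2 FPKM. It was 1.37 times the ES mean, a difference of 0.43 (SE 0.04, limma adjusted p = 0.139 and 0.0442). Id4 was at 2.73 FPKM against 2.34 and 2.68 FPKM, a difference of 0.09 with an interval from -0.41 to 0.59.

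No member was called in the EB library by limma over all genes or in the strand-clear set, where 0.396% and 2.30% of genes were called, and none was 2-fold from both ES libraries, against 12.5% of tested genes. At an unadjusted p under 0.05 limma over all genes listed 5 of 9 members, namely Id1, Id2, Id3, Bmp4 and Smad1, against 27.7% of all tested genes. In the strand-clear set 3 of 6 members had an adjusted p under 0.05 at any size, all of them Id genes, against 15.1% of its genes. The median difference over the members was -0.22, and -0.01 over all tested genes.

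**Figure D2:**
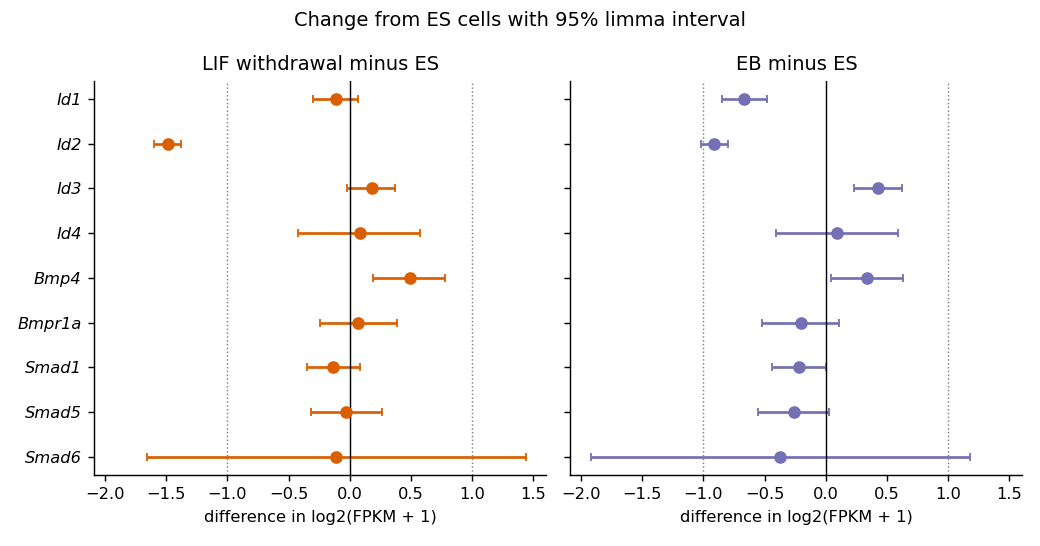
Difference in log2(FPKM + 1) from ES cells for the 9 members, with LIF withdrawal left and EB right; points are the limma estimates, bars their 95% intervals and dotted lines the 2-fold threshold. Id2 lies past the threshold after LIF withdrawal (-1.49), and Id1 and Id3 lie on opposite sides of 0 in the EB library (-0.67 and 0.43).

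The derived libraries were also set side by side, with 1 library each and therefore no test. Intervals are exact and cover counting error only, from fragment numbers estimated as FPKM times exon length times depth. Id2 was 1.52 times as high in the EB library as after LIF withdrawal (28.4 and 18.7 FPKM, interval 1.40 to 1.65). Id1 was 0.667 times as high (14.8 and 22.1 FPKM, interval 0.585 to 0.762), so these family members differed in opposite directions. Id3 was at a ratio of 1.20 (interval 1.06 to 1.36), and Id4 at 1.01 (interval 0.836 to 1.22). No member was 2-fold apart between the derived libraries on the log2(FPKM + 1) scale, against 14.9% of tested genes.

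The make-up of the Id family can be read within each library, where library scaling cancels. Id2 made up 33.3% of the summed Id FPKM after LIF withdrawal and 46.5% in the EB library, against 58.9% and 59.2% in ES cells. Id3 made up 22.5% and 24.9%, against 11.9% and 12.2%. Thus both derived libraries held a smaller share of Id2 and a larger share of Id3 than either ES library. Id1 took the largest share after LIF withdrawal, at 39.4%, but 24.2% in the EB library, against 26.6% and 25.7% in ES cells. The ratio of Id2 to Id1 was 0.845 after LIF withdrawal and 1.92 in the EB library, against 2.22 and 2.31 in ES cells. The ratio of Id3 to Id1 was 0.570 and 1.03, against 0.448 and 0.474.

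**Figure D3:**
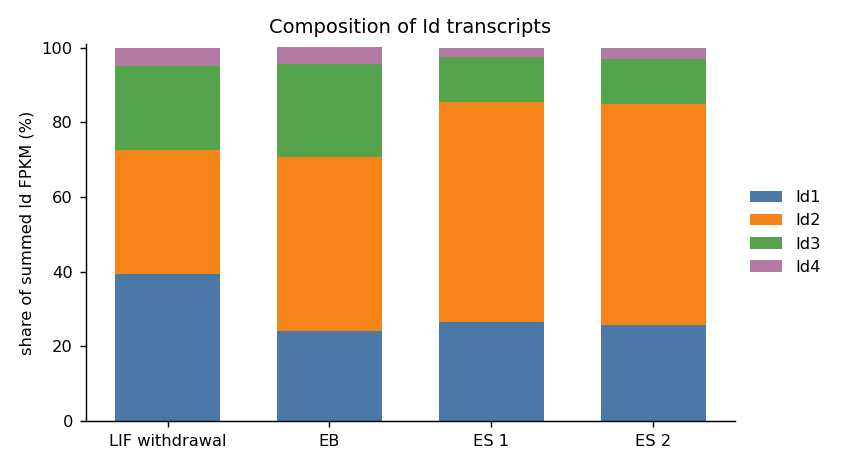
Share of each Id gene in the summed Id FPKM of a library, in percent, for the LIF-withdrawal, EB and both ES libraries. Id2 takes 33.3% and 46.5% in the derived libraries and 58.9% and 59.2% in the ES libraries.

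The summed level of the 4 Id genes was 56.1 FPKM after LIF withdrawal and 61.1 in the EB library, against 91.7 and 92.0 in ES cells. The E-protein genes Tcf3, Tcf4 and Tcf12, whose products are bound by Id proteins, summed to 109 and 109.7 FPKM, against 107 and 113. The quotient of these sums was therefore 0.514 and 0.557 in the derived libraries, against 0.858 and 0.812 in ES cells. None of the 3 E-protein genes was called by limma in either comparison. At an unadjusted p under 0.05, 2 of them were listed after LIF withdrawal and 1 in the EB library (37.2% and 27.7% of all tested genes). Tcf12 had the largest difference, at 30.8 FPKM after LIF withdrawal against 22.7 ± 0.0906 in ES cells (log2 difference 0.42, limma adjusted p = 0.0521).

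Among ligands, Bmp4 was by far the most abundant. Bmp4 was at 20.9 FPKM after LIF withdrawal, against 14.2 and 15.1 FPKM in ES cells. In the EB library it was at 18.8 FPKM. Both derived libraries thus lay above both ES libraries, at 1.43 and 1.28 times the ES mean. The log2 differences were 0.49 (SE 0.06, limma adjusted p = 0.0923) and 0.34 (limma adjusted p = 0.166), and neither was called. On rescaling to TPM the difference after LIF withdrawal was -0.12, with the median of all genes at -0.53. Of 13 ligand genes 3 passed the filter, and limma called 0 in either comparison, with 1 and 2 at an unadjusted p under 0.05 (37.2% and 27.7% of all tested genes). Bmp8b, a ligand of the germline lineage in mice, was at 2.27 FPKM after LIF withdrawal and 1.05 in the EB library, against 1.60 ± 0.156 in ES cells. Bmp2 and Bmp7 stayed under 1 FPKM in every library.

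Bmpr1a encodes the type I receptor for BMP4 and had the highest level of all members in both derived libraries. It was at 36.8 FPKM after LIF withdrawal and 30.2 in the EB library, against 36.1 and 33.8 FPKM in ES cells. The EB value lay below both ES libraries and the LIF-withdrawal value just above both. Log2 differences were 0.07 (interval -0.24 to 0.39, and -0.56 on rescaling to TPM) and -0.20 (interval -0.52 to 0.11), with limma adjusted p = 0.507 and 0.248. All 7 receptor genes were tested and limma called 0 in either comparison, with 2 and 1 at an unadjusted p under 0.05 (37.2% and 27.7% of all tested genes). The type II receptor gene Bmpr2 was at 14.4 and 11.9 FPKM, against 11.9 ± 0.160 in ES cells. Acvr2a, another type II receptor gene, was at 9.64 and 5.53 FPKM, against 5.87 ± 0.0910, with limma adjusted p = 0.0700 after LIF withdrawal. Of the 4 co-receptor genes 0 were called and 0 had an unadjusted p under 0.05, and Eng (endoglin) was at 8.99 and 16.6 FPKM, against 9.73 ± 1.22, and Rgmb (a membrane-anchored BMP co-receptor) at 4.06 and 4.75 FPKM, against 4.05 ± 0.125.

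Smad1 and Smad5 carry the signal from the receptor to the nucleus. Smad1 was at 8.13 FPKM after LIF withdrawal and 7.62 in the EB library, against 9.02 and 9.03 FPKM in ES cells. Both derived libraries were below both ES libraries, at 0.900 and 0.844 times the ES mean. The log2 differences were -0.14 and -0.22, with limma adjusted p = 0.210 and 0.180. Smad5 was at 15.1 and 12.7 FPKM, against 15.8 and 14.9 FPKM. The value after LIF withdrawal lay between the ES libraries and the EB value below both, with log2 differences of -0.03 and -0.26 (limma adjusted p = 0.765 and 0.192). On rescaling to TPM the differences after LIF withdrawal were -0.73 for Smad1 and -0.64 for Smad5, with the median of all genes at -0.53. Smad4, the shared partner, was at 29.3 and 27.6 FPKM, against 30.6 ± 0.882. The ratio of Smad5 to Smad1 was 1.85 and 1.66, against 1.75 and 1.65 in ES cells.

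Smad9, the remaining receptor-regulated SMAD gene of this branch, did not pass the filter. It was at 0.423 FPKM after LIF withdrawal and 0.0548 in the EB library, against 0.167 and 0.177 in ES cells. About 41 fragments stand behind the LIF-withdrawal value and about 8 behind the EB value, a ratio of EB to LIF withdrawal of 0.129 with an exact interval from 0.0542 to 0.289 for counting error only.

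The inhibitory SMAD genes are transcribed in response to the pathway they restrain, and the pair differed in level. Smad6 was at 0.644 FPKM after LIF withdrawal and 0.371 in the EB library, against 1.10 and 0.496 FPKM in ES cells. The ES libraries differed from each other more than for any other member, and the LIF-withdrawal value lay between them. Log2 differences were -0.11 (interval -1.66 to 1.44) and -0.37 (interval -1.92 to 1.18), so a 2-fold change in either direction could not be told from none. Smad6 reached the filter of 1 FPKM through the higher ES library only. It rests on about 37 and 31 fragments in the derived libraries, against 111 and 42 in ES cells.

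Smad7, which inhibits both BMP and NODAL signalling, was much more abundant. It was at 40.2 FPKM after LIF withdrawal and 32.0 in the EB library, against 20.4 and 21.4 FPKM in ES cells. Both derived libraries were above both ES libraries, with log2 differences of 0.91 (SE 0.05, limma adjusted p = 0.0517 among all genes and 0.0182 among strand-clear ones) and 0.59 (limma adjusted p = 0.139 and 0.0330). Neither reached the 2-fold threshold, and on rescaling to TPM they were 0.30 and 0.51. Of the 10 genes for intracellular inhibitors limma called 0 in either comparison, with 3 and 5 at an unadjusted p under 0.05 (37.2% and 27.7% of all tested genes). The most abundant were Fkbp1a, whose product binds type I receptors and was at 177 and 164 FPKM, against 204 ± 1.26, and the SMAD co-repressor gene Skil, at 55.2 and 52.9 FPKM, against 56.0 ± 1.88. Tob1, an antiproliferative gene whose product binds SMADs, was at 16.2 and 31.1 FPKM, against 22.0 ± 0.858, on opposite sides of the ES level.

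Among secreted antagonists, Grem1 (gremlin 1, which binds BMP2 and BMP4 outside the cell) rose after LIF withdrawal. It was at 46.4 FPKM, against 6.88 and 7.27 FPKM in ES cells, a log2 difference of 2.55 (SE 0.05, limma adjusted p = 0.0154). In the EB library Grem1 was at 35.8 FPKM. Its difference there was 2.19, with limma adjusted p = 0.124 among all genes and 0.0134 among strand-clear ones, where it rose, as it also did with no filter on low genes. Htra1, a secreted protease that interferes with signals of this family, rose to 15.5 FPKM after LIF withdrawal, against 6.83 ± 0.169 in ES cells (1.07, limma adjusted p = 0.0442), and was at 8.49 FPKM in the EB library. Htra1 lies within the body of Fgfr2 on the opposite strand. Rescaling to TPM ended the calls of Grem1 and Htra1 after LIF withdrawal, at log2 differences of 1.99 and 0.51, and Htra1 was also not called with a pseudocount of 0.1 or among genes at a mean of 5 FPKM or more.

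Of 18 secreted modulators 11 were tested, and 2 rose and 0 fell after LIF withdrawal by limma, against 7.32% of all tested genes called higher, and 6 were at an unadjusted p under 0.05, against 37.2%. Their median log2 difference was 0.80, and 0.04 over all tested genes. Among the 6 in the strand-clear set it was 0.48, and 0.01 over all strand-clear genes. In the EB library limma called 0 of 11, with 5 at an unadjusted p under 0.05, against 27.7% of all tested genes, and a median of -0.08. By size, 5 were at least 2-fold above both ES libraries after LIF withdrawal and 0 below, whereas in the EB library 1 was above and 3 below. Over all tested genes, 12.8% were above and 4.09% below after LIF withdrawal, and 8.45% above and 4.05% below in the EB library. Nbl1 and Fstl3, which encode binders of BMP and activin ligands, were among those above after LIF withdrawal, at 4.26 and 2.17 FPKM, against 1.76 ± 0.142 and 0.784 ± 0.148. On rescaling to TPM their log2 differences there went from 0.93 and 0.83 to 0.51 and 0.55. Fstl3 overlaps a gene on the opposite strand over 47.3% of its exons. Fst (follistatin) and Dand5 (a NODAL antagonist) were among those below in the EB library, at 4.30 and 0.309 FPKM, against 9.04 ± 0.479 and 0.918 ± 0.325. Bmp1 and Tll1 encode related proteases that cleave the antagonist chordin. Bmp1 was at 7.01 FPKM after LIF withdrawal and 5.75 in the EB library, against 3.20 ± 0.119 in ES cells. On rescaling to TPM its log2 difference after LIF withdrawal went from 0.93 to 0.43. Tll1 was at 5.34 and 0.404 FPKM, against 2.64 ± 0.157, the larger EB difference of the pair (log2 difference -1.37, limma adjusted p = 0.139). Nog (noggin, a high-affinity antagonist) did not pass the filter and was at 0.534 and 0.0714 FPKM, against 0.601 and 0.543 FPKM in ES cells. The EB value rests on about 3 fragments, and its ratio to the LIF-withdrawal library was 0.134 (exact interval 0.0240 to 0.449, counting error only).

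**Figure D4:**
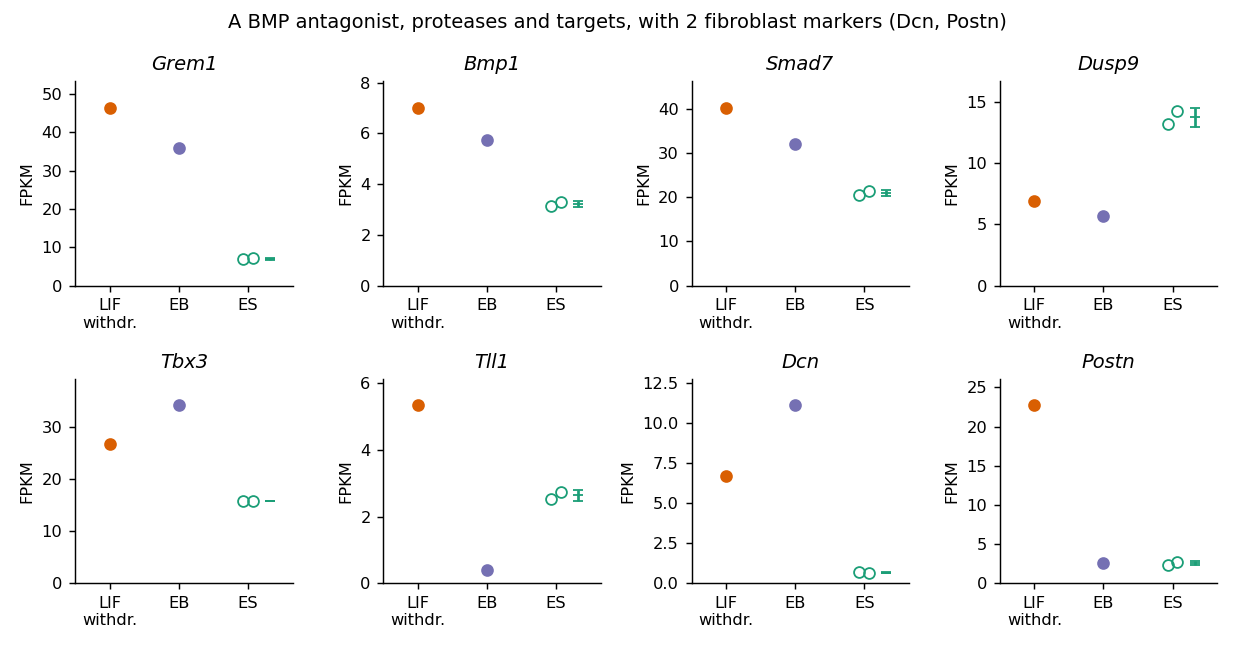
FPKM of the antagonist gene Grem1, the protease genes Bmp1 and Tll1, the targets Smad7, Dusp9 and Tbx3, and the fibroblast markers Dcn and Postn, drawn as for the members. Grem1 is high in both derived libraries (46.4 and 35.8 FPKM), whereas Tll1 is high after LIF withdrawal (5.34) and low in the EB library (0.404).

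Fibroblast markers were measured beside these genes because the ES cultures contained fibroblasts and Grem1 is also expressed by fibroblasts. Of 22 markers, 21 were above both ES libraries after LIF withdrawal and 1 below both. In the EB library 11 were above both and 7 below both. The share of all genes that lay so was not counted. Their summed level was 386 FPKM after LIF withdrawal and 148 in the EB library, against 191 and 192 in ES cells. The FPKM of all genes summed to 865343 after LIF withdrawal and 594026 in the EB library, against 582093 and 528718 in ES cells. Rescaling to TPM moved the median of all genes by -0.53 after LIF withdrawal, and marker values on TPM are not given here. No marker was at 0 in a derived library, whereas Lum (lumican) was at 0 in 1 ES library. Limma called 5 of 21 tested markers higher after LIF withdrawal (Col5a2, Dcn, Postn, S100a4 and Fbln2), against 7.32% of all tested genes. It called 0 in the EB library, with 13 at an unadjusted p under 0.05 against 27.7% of all tested genes. Of 15 markers in the strand-clear fit, 5 were called higher after LIF withdrawal, against 3.07% of its genes called. In the EB library that fit called 5 of the 15 higher and 1, Vim (vimentin), lower, against 2.30% of its genes. By size, 10 of 21 tested markers were at least 2-fold above both ES libraries after LIF withdrawal, against 12.8% of all tested genes. In the EB library 6 were above and 2 below, against 8.45% and 4.05%. Dcn (decorin) was at 6.68 and 11.1 FPKM, against 0.679 ± 0.0224, and Postn (periostin) at 22.7 and 2.66 FPKM, against 2.59 ± 0.286. The part of fibroblast RNA in the levels of Grem1 and the members was not tested.

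Among targets of BMP other than the Id genes none was called over all genes. Of 16 genes 10 were tested, and limma called 0 in either comparison, with 7 at an unadjusted p under 0.05 after LIF withdrawal and 5 in the EB library (37.2% and 27.7% of all tested genes). Their median log2 differences were 0.32 and -0.15. Dusp9 encodes a phosphatase of ERK kinases that BMP4 induces in mouse ES cells. It was at 6.92 FPKM after LIF withdrawal and 5.68 in the EB library, against 13.2 and 14.3 FPKM in ES cells, and both derived libraries were below both ES libraries. Its log2 differences were -0.90 (limma adjusted p = 0.0749 among all genes and 0.0220 among strand-clear ones) and -1.14 (limma adjusted p = 0.139 and 0.0247), and -1.52 and -1.29 on TPM, so it fell in the EB library by the strand-clear fit.

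Tbx3, a T-box factor gene of self-renewing ES cells, was at 26.7 FPKM after LIF withdrawal and 34.2 in the EB library, against 15.8 FPKM in each ES library. It was at least 2-fold above both ES libraries in the EB library (log2 difference 1.07, limma adjusted p = 0.124), while after LIF withdrawal it had limma adjusted p = 0.0305 at a log2 difference of 0.72, under the 2-fold threshold and at 0.11 on rescaling to TPM. With no filter on low genes, limma called Tbx3 higher in the EB library. Tbx3 overlaps a transcript on the opposite strand over 1.74% of its exons. Msx2, a homeobox target gene, was at 1.30 and 0.189 FPKM, against 0.769 ± 0.0931 in ES cells. Runx2 and Zeb2 were 2-fold above both ES libraries after LIF withdrawal, at 2.60 and 8.33 FPKM, against 1.09 ± 0.167 and 3.63 ± 0.436. On rescaling to TPM their log2 differences went from 0.79 and 1.01 to 0.44 and 0.50, with the median of all genes at -0.53.

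**Figure D5:**
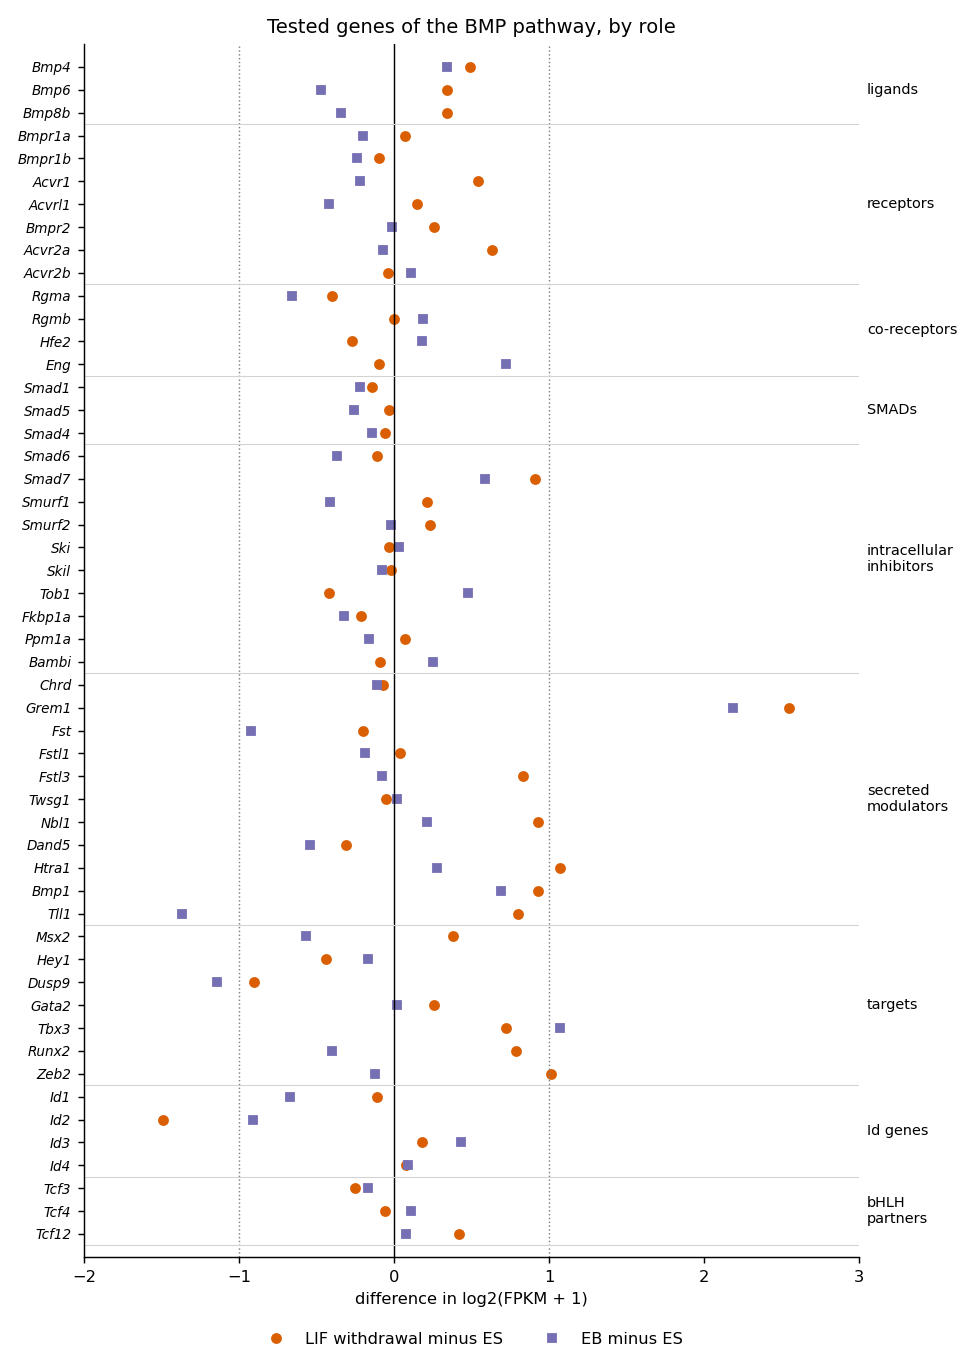
Difference in log2(FPKM + 1) from ES cells for the 52 tested genes of the pathway lists, in order of role; circles give LIF withdrawal, squares EB and dotted lines the 2-fold threshold. Grem1 lies farthest right in both comparisons (2.55 and 2.19) and Id2 farthest left after LIF withdrawal (-1.49).

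Over the 9 pathway lists, which hold 75 genes with the members among them, limma called 2 of 52 tested genes higher and 1 lower after LIF withdrawal, and 0 in the EB library, with 21 at an unadjusted p under 0.05 in each comparison. Of all tested genes 7.32% were called higher and 0.357% lower after LIF withdrawal, and 0.396% were called in the EB library. An unadjusted p under 0.05 was reached by 37.2% of them after LIF withdrawal and 27.7% in the EB library. The strand-clear fit of 31 of the pathway genes called 1 higher and 1 lower after LIF withdrawal, and 1 higher and 1 lower in the EB library. Of all strand-clear genes 3.07% were called after LIF withdrawal and 2.30% in the EB library. The 2 comparisons share the ES libraries as controls.

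The order of the members by level, which FPKM allows because it is per length, changed between libraries. After LIF withdrawal Bmpr1a (36.8 FPKM) was followed by Id1 (22.1), Bmp4 (20.9) and Id2 (18.7). In the EB library Bmpr1a (30.2) was followed by Id2 (28.4), Bmp4 (18.8), Id3 (15.2) and Id1 (14.8). In both ES libraries Id2 stood first, followed by Bmpr1a and Id1. Next came Smad5 (15.8 and 14.9 FPKM) and Bmp4 (14.2 and 15.1 FPKM), whose ES values overlapped and which changed places between the ES libraries. Id3, Smad1, Id4 and Smad6 then followed in each ES library, and the values of each of these neighbours did not overlap.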

How the data were processed

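The authors deposited FPKM per gene for 4 libraries. Per the submitters' processing notes, Trimmomatic 0.36, STAR, Cufflinks and build mm10 were used; roles, options, annotation and strand handling could not be read from the sources used here. Identifiers were matched without version to GENCODE vM21 (47219 of 47633). Depth was estimated by taking the modal low product of FPKM and exon length, among single-transcript genes of 3000 or more bases, as 1 fragment (log2 bins of 0.05).

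All 4 libraries entered 1 limma 3.58.1 model (R 4.3.3) with a variance trend, on log2(FPKM + 1), which understates changes of low genes. p-values were adjusted over all genes tested. The step was tested on simulated data in which every library scattered like the ES pair. That test cannot show how the derived libraries themselves scatter. The remaining work used Python 3.11.15, pandas 2.3.3, scipy 1.17.1 and matplotlib 3.10.9.

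Members and gene lists, the strand-clear set included, were chosen with earlier results of these data known. Named from each list were called genes, genes 2-fold by size or otherwise the most abundant, and further genes (Smad9, Nog, Tob1, Acvr2a, Tcf12, the remaining ligands and the cell type markers) were added after their values were seen. A further result is left out and not reported here. Alternatives were another pseudocount, filter, scaling, gene set and variance model, and leaving out each ES library.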

Additional observations from a re-analysis of the deposited data

How the results depend on the processing

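Id2 was called lower after LIF withdrawal under all 7 alternative limma fits, and no other member tested was called under any of them in either comparison (the filter at a mean of 5 FPKM left 7 members and the strand-clear set 6). Rescaling to TPM moved the median of all genes by -0.53 on the log2 scale after LIF withdrawal (-0.09 in the EB library), and with it Id3 (-0.43), Id4 (-0.42), Bmp4 (-0.12) and Bmpr1a (-0.56) turned lower there; relative to that shift Id3, Id4 and Bmp4 were still higher. TPM also ended the calls of Grem1 and Htra1 after LIF withdrawal, while the fit with no filter called Grem1 and Tbx3 higher in the EB library. TPM also put 1 member, Id2, at least 2-fold apart between the EB and LIF-withdrawal libraries, against 0 on FPKM. Without either ES library, the number of members 2-fold from the remaining one in the EB library was 0 to 1, the 1 being Smad6 without ES replicate 2; with 1 ES library no test could be made. That alternative was added after seeing the data. Calls over all genes ranged from 140 to 1207 after LIF withdrawal (1203 in the main model) and from 0 to 165 in the EB library (62), the lowest counts coming from the filter at a mean of 5 FPKM and from the fit without a variance trend (0 calls, 4504 genes at an unadjusted p under 0.05). No paired analysis was possible because the derived groups hold 1 library each. Depth limits the values of Smad6, Smad9, Nog, Dand5 and the mesoderm markers below the filter, which rest on few fragments.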

Other observations

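Among 8577 other protein-coding genes at a mean of 5 FPKM or more, those whose 4 log2 values, centred on the ES mean, lay nearest to Id2 were Map2, Actg1, Phpt1, Fgf17 and Fndc3c1. Map2, a microtubule protein gene, was nearest at a distance of 0.244 and stood at 3.21 FPKM after LIF withdrawal and 6.69 in the EB library, against 11.0 and 11.6 in ES cells. Actg1, a cytoplasmic actin gene, was at 732 and 1081 FPKM, against 1729 and 1802. Nearest to Id1 were Rcn2, Med13l, Tgm1, Amn1 and Sfxn1, with Rcn2 at 21.7 and 14.6 FPKM, against 23.7 and 24.0 (distance 0.0449). Nearest to Id3 were Abcd3, Igf2r, Bnc2, Ypel3 and Pramef8, with Igf2r at 20.6 and 24.6 FPKM, against 17.9 and 18.7 (distance 0.0272). The nearest gene to Id2 was thus farther away than the fifth nearest to Id1 (0.0919) or Id3 (0.0369). These distances span 4 libraries only and are a description.

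Several ligands were at or near 0. Gdf2, a ligand of endothelial receptors, was listed at 0 in all 4 libraries, where 3 fragments would correspond to 0.0555 FPKM after LIF withdrawal, 0.0380 in the EB library and 0.0319 and 0.0380 in ES cells. Bmp5, Bmp10 and Bmp15 stood at 0 in the ES libraries and were at most 0.0293 FPKM in the derived ones.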
